A study of Mus musculus with 10 samples.

Results

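The epidermal differentiation complex is the cluster of genes on mouse chromosome 3 that encodes much of the protein shell of cornified epithelium. Its members were taken as the RefSeq protein-coding genes on that chromosome whose symbols begin with Sprr, Lce or S100a, together with Ivl, Flg, Flg2, Hrnr, Rptn, Tchh and Crnn. This rule gave 57 of 21887 protein-coding genes, which are 15 S100a genes, 14 Sprr genes, Ivl, 21 Lce genes and 6 genes of the S100 fused type. They lie between positions 90511034 and 93564645 of the mm10 assembly, a stretch of 3.05 Mb with S100a genes at both ends. The measurements are the called peaks of open chromatin over these genes, within 5 kb on each side of them, and between them.

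In skin, keratinocytes that leave the basal layer switch on this complex and build the cornified envelope, in which involucrin (Ivl), the small proline-rich proteins (Sprr) and the late cornified envelope proteins (Lce) are cross-linked by transglutaminases. The S100 fused-type proteins, such as filaggrin and trichohyalin, bind and bundle keratin filaments, and the S100a proteins are small calcium sensors. In the thymus, medullary epithelial cells display proteins of other tissues to developing T cells, and some late medullary cells form Hassall's corpuscles, whorls of keratinised cells that carry involucrin and filaggrin.

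Chromatin accessibility was profiled by ATAC-seq, in which a transposase cuts and tags open DNA, in thymic epithelial cells sorted from enzymatically digested thymi of wild-type C57BL/6 mice. Day 6 cells came as 3 fractions labelled mTEC4, mTEC1 and mTEC2, and embryonic cells were from embryonic day 15 (E15) and embryonic day 17 (E17), giving 5 groups of 2 libraries. What the fraction names stand for is not explained in the titles, and no fraction is named for the embryonic cells. The names of single peaks call mTEC4 aTEC, mTEC1 eTEC and mTEC2 Hi, a tag that the E15 and E17 lists also carry as hi.

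All 10 libraries are of 1 strain and genotype, and the labels do not say whether the 2 libraries of a group came from separate mice, so the p-values below measure only the spread between these libraries. The files are 1 list of broad peaks per library, with 882163 peaks in all, and hold no read counts, so depth is unknown. Day 6 lists held 40858 to 101917 peaks, against 86237 to 151646 in the embryonic lists. Age, sorted fraction and list length cannot be told apart in this design. As sorted cells were measured in bulk, a site open in fewer cells and a site less open in each cell cannot be told apart either. Peaks of all libraries that overlapped or touched were merged into 351411 regions, of which 370 lie in the complex. A region was called in a library if that library had a peak in it. Of 5 epithelial marker genes (Epcam, Krt8, Krt18, Cdh1 and Foxn1), 4 to 5 had a called region in day 6 libraries, against 5 in every embryonic library. Of 8 thymocyte markers, 5 to 8 had one in day 6 libraries and 5 to 7 in embryonic libraries. Of 11 granulocyte and macrophage markers, 6 to 9 and 7 to 8 did. A called region at a marker therefore does not show the cell type.

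Start regions of 8 members are given here as landmarks for what follows, with 250 bases before and 50 after the annotated start, from RefSeq on GRCm38.p6 (the patched release of mm10). A promoter counts as called in a library if a region called there overlaps it, even where the library's own peak stops short. S100a11 is the member whose promoter was called in all 10 libraries. Sprr1a and Crnn were called at their starts in every embryonic library. Ivl, Sprr2b, Sprr2i and S100a8 were not called at their starts in any library. Capitals mark TATAAA, the AP-1 motif TGANTCA or the C/EBP motif TTGCNNAA, on either strand. All are written 5′ to 3′ on the strand of the gene.
S100a11, chr3:93520246-93520545, plus strand: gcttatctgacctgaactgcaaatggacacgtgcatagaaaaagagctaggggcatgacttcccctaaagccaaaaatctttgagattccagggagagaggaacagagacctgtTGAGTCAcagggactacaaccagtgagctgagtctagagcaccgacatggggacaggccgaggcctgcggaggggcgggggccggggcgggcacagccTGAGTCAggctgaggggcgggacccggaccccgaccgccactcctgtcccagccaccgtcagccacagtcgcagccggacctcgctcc
Sprr1a, chr3:92485832-92486131, minus strand: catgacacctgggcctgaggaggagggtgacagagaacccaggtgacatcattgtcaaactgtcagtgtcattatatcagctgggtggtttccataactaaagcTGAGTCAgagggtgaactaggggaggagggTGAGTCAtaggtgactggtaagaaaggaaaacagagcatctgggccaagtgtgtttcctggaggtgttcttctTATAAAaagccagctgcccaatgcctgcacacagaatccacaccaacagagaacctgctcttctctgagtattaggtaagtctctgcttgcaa
Crnn, chr3:93144539-93144838, plus strand: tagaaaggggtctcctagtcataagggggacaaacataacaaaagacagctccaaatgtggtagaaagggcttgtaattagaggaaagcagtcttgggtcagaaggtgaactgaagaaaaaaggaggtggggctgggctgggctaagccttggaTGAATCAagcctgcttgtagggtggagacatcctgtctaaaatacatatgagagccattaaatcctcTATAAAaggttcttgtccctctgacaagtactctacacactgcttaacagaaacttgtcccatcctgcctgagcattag
Ivl, chr3:92573686-92573985, minus strand: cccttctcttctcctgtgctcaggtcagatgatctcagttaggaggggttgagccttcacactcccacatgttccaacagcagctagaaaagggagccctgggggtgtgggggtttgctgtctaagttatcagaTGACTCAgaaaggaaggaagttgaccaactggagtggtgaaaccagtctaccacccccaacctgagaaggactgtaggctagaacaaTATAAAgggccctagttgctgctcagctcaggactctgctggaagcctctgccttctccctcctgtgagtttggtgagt
Sprr2b, chr3:92316455-92316754, plus strand: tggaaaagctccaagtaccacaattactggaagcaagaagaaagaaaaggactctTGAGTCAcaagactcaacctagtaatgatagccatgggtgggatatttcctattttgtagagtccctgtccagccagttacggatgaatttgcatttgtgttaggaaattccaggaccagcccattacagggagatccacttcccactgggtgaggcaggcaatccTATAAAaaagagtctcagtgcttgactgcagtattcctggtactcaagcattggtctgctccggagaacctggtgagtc
Sprr2i, chr3:92407741-92408040, plus strand: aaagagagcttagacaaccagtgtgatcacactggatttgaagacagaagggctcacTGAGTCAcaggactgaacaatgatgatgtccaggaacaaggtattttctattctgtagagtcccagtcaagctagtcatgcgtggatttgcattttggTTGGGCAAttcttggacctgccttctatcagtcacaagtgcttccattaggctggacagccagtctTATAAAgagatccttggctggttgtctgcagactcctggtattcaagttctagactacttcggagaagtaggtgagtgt
S100a8, chr3:90668821-90669120, plus strand: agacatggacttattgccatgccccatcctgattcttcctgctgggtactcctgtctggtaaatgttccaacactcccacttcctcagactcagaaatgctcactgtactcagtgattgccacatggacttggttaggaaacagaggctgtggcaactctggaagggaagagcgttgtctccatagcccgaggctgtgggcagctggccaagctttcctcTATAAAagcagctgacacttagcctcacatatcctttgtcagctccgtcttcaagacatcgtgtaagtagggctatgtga
In the eighth, Sprr2a3, capitals have another meaning. They mark the 28 bases before the stretch it shares, base for base, with Sprr2a1 and Sprr2a2. The start regions of those genes begin after these bases, so the 28 were not compared.
Sprr2a3, chr3:92285054-92285353, plus strand: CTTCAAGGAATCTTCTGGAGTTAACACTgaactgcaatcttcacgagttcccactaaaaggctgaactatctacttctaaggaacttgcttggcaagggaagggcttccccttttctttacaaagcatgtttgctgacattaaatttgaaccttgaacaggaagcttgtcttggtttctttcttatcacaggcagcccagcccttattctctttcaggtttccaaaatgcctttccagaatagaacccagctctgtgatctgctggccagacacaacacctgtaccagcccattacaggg

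Across the whole complex, day 6 thymic epithelium averaged fewer called regions than embryonic thymic epithelium. The lists held 73 and 90 regions of the complex in mTEC4, 83 and 83 in mTEC1 and 124 and 51 in mTEC2, against 140 and 127 in E15 and 122 and 175 in E17. The groups overlapped at 1 library, the first mTEC2 library, whose 124 regions exceeded the 122 of the first E17 library. The mean was 84 ± 23.9 in day 6 libraries (SD, n = 6) and 141 ± 23.9 in embryonic libraries (SD, n = 4), a ratio of 0.596. Over all of chromosome 3, which shares the difference in list length, the same ratio was 0.671. Per 1000 regions of a list, the complex held 1.18 ± 0.113 in day 6 libraries and 1.32 ± 0.119 in embryonic libraries, and these ranges overlapped.

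With every list shortened to its 40858 strongest peaks, the length of the shortest list, the groups no longer overlapped in the complex. It then held 42 and 46 regions in mTEC4, 35 and 48 in mTEC1 and 54 and 51 in mTEC2, against 70 and 71 in E15 and 70 and 70 in E17. Every embryonic library lay above every day 6 library, and the 4 embryonic values were within 1 region of each other. Chromosome 3 as a whole held 2197 ± 123 regions in day 6 libraries and 2235 ± 53.5 in embryonic libraries at this length, with overlapping ranges. The share of strong peaks was also lower in day 6 libraries, both in the complex and over whole lists. Of the peaks in the complex, 2.70% and 6.45% reached a −log10 q of 5 in mTEC4, 3.49% and 7.06% in mTEC1 and 18.0% and 7.84% in mTEC2, against 53.1% and 58.9% in E15 and 57.3% and 61.6% in E17. The complex fell short of the whole list in 5 of the 6 day 6 libraries, where 6.33% to 12.4% of all peaks reached that value. It exceeded the whole list in the first mTEC2 library, where 14.3% did, and in all 4 embryonic libraries, where 41.7% to 48.8% did. These are the authors' q values, each from its own library, and the part of depth in these shares was not tested.

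**Figure D1:**
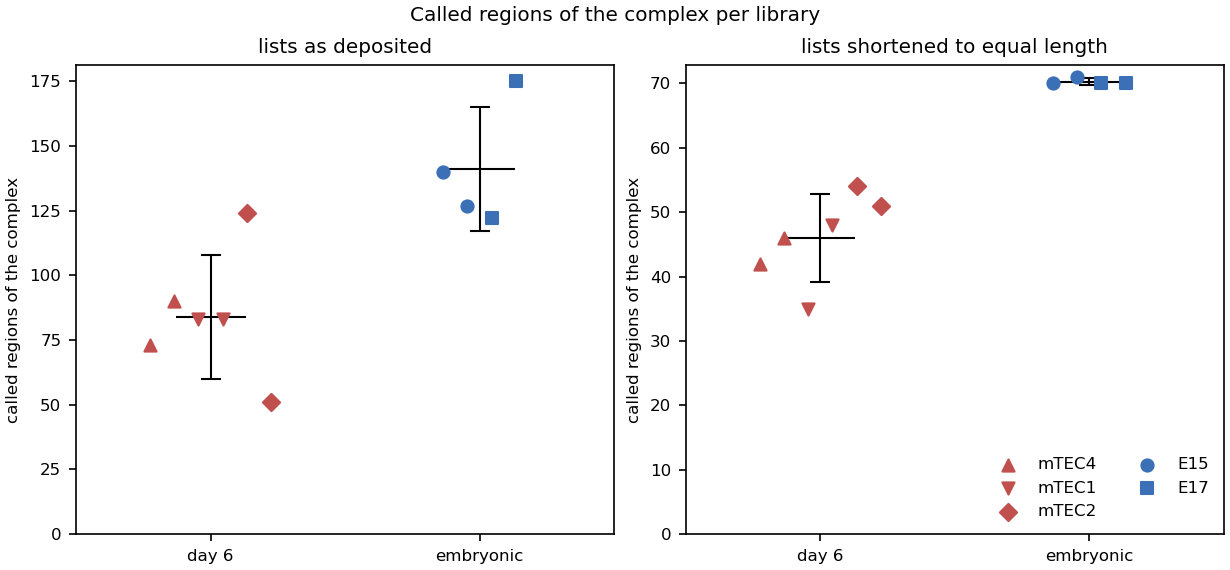
Called regions of the complex per library (vertical axis, number of regions) in day 6 and embryonic libraries, for the lists as deposited (left) and for lists shortened to equal length (right). Points are libraries, with a marker for each group, and bars are the mean ± SD. At equal length the 6 day 6 libraries sit between 35 and 54, and the 4 embryonic libraries sit at 70 or 71.

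The difference was spread unevenly along the complex. At equal list length the block from Ivl to Lce1m, which holds involucrin and all the late cornified envelope genes, had 4 and 3 regions in mTEC4, 1 and 2 in mTEC1 and 3 and 5 in mTEC2, against 11 and 12 in E15 and 11 and 12 in E17. No day 6 library came near the embryonic libraries there. Block counts include regions more than 5 kb from any member. Ivl itself had a region at equal list length in the first E17 library only. The block from Sprr2a1 to Sprr4 had 2 and 3 regions in mTEC4, 6 and 11 in mTEC1 and 8 and 8 in mTEC2, against 11 and 12 in E15 and 11 and 12 in E17. In this block the second mTEC1 library reached the lowest embryonic value and both mTEC4 libraries lay lowest.

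At the 2 S100a ends the groups overlapped. The block from S100a1 to S100a9 had 9.17 ± 3.60 regions in day 6 libraries and 14 ± 0.816 in embryonic libraries. The block of S100a11 and S100a10 had 3.5 ± 1.38 in day 6 libraries and 4.5 ± 0.577 in embryonic libraries. They also overlapped in the S100 fused-type block from Crnn to Tchh, with 4.50 ± 2.43 regions in day 6 libraries and 7.75 ± 0.957 in embryonic libraries.

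**Figure D2:**
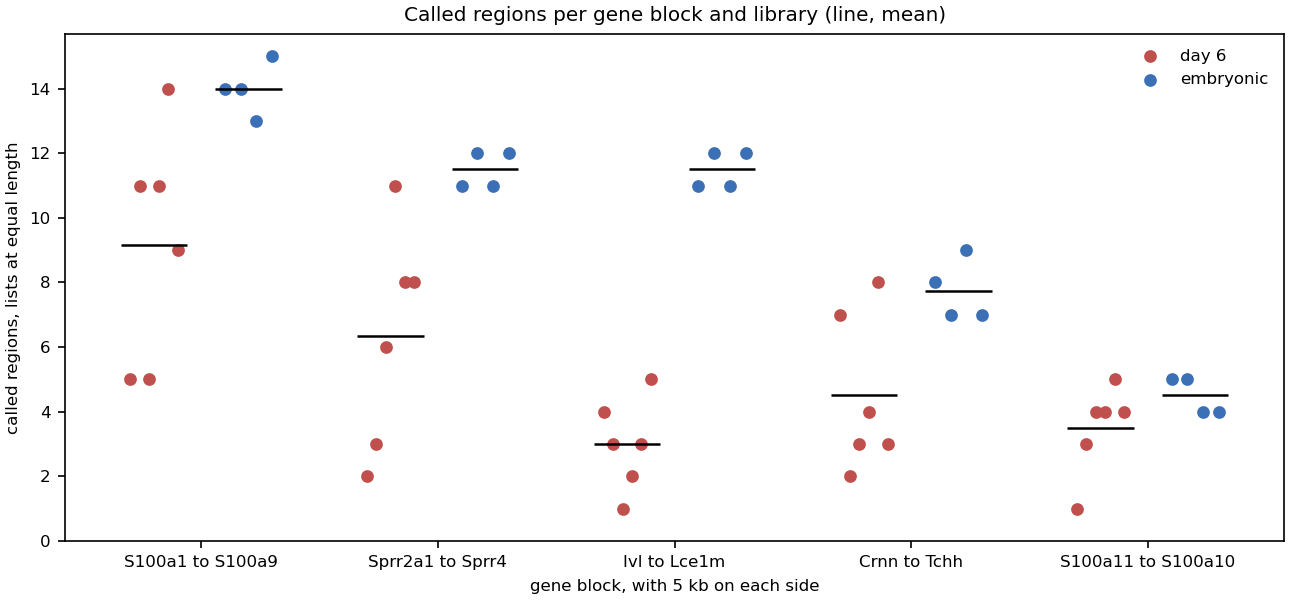
Called regions per gene block (vertical axis, number of regions, lists at equal length) for the 5 main blocks of the complex in chromosome order, day 6 on the left and embryonic on the right of each pair. Points are libraries and lines are means. In the block from Ivl to Lce1m the day 6 libraries have 1 to 5 regions and the embryonic libraries 11 or 12.

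In 1 of the 2 wide stretches without a member the day 6 lists held more regions at equal list length. Between S100a9 and S100a7l2, over 382 kb without a member, the deposited lists had 14 and 16 regions in mTEC4, 12 and 7 in mTEC1 and 10 and 6 in mTEC2, against 6 and 7 in E15 and 4 and 6 in E17. At equal list length the counts there were 8 and 7 in mTEC4, 7 and 3 in mTEC1 and 4 and 6 in mTEC2, against 2 in each of the 4 embryonic libraries. Every day 6 library was then above every embryonic one. Most of these day 6 peaks were weak and were seen in few libraries. The most shared of them, chr3:90860424-90861063, was called in 5 day 6 libraries and no embryonic library with a −log10 q of at most 2.72. Between S100a7l2 and Sprr2a1, over 1098 kb, the deposited lists had 20.8 ± 6.71 regions in day 6 libraries and 19.5 ± 3 in embryonic libraries. With lists of equal length they had 8 ± 2.45 in day 6 libraries and 8.75 ± 1.26 in embryonic libraries. Shorter stretches without a member went both ways at equal length. Between Lce1m and Crnn the means were 2.5 in day 6 and 6.5 in embryonic libraries, and between Sprr4 and Ivl 0.333 and 1.5. Between Tchh and S100a11 they were 2.67 and 2.25.

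**Figure D3:**
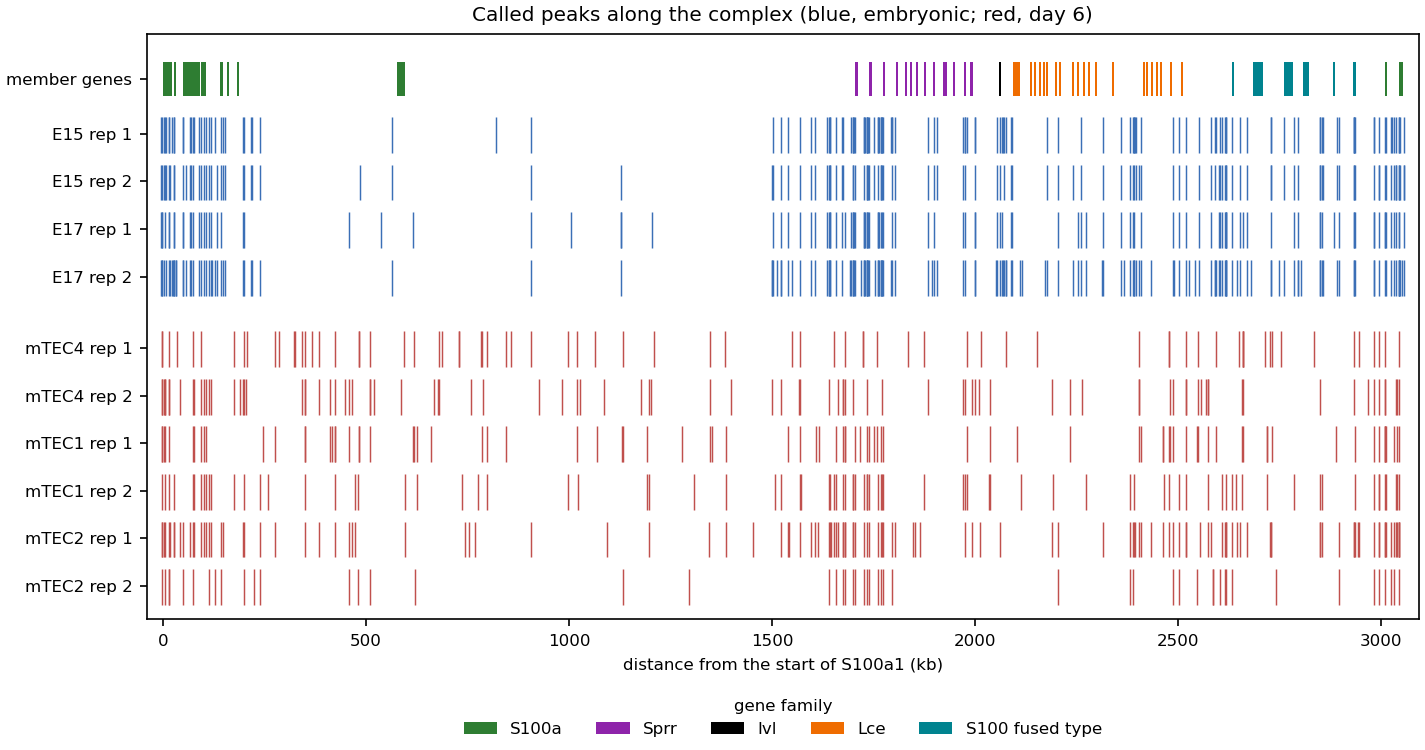
Called peaks along the complex in each library, as vertical ticks against distance from the start of S100a1 in kb, with the member genes of each family at the top. Blue rows are embryonic libraries and red rows day 6 libraries. Embryonic ticks cluster around the gene blocks and are few on both sides of S100a7l2, where the day 6 libraries have scattered ticks.

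Gene by gene, the number of called regions over the gene or up to 5 kb from it was compared between the 6 day 6 and 4 embryonic libraries by an exact two-sided permutation test. With 210 arrangements of the libraries the smallest p is 0.00476, reached only when the groups do not overlap. After Benjamini-Hochberg adjustment over all 20190 genes with a region this became 0.0370. Of the 57 members, 42 had a region in at least 1 library and were tested. The 15 without a region were 26.3% of members, against 7.75% of all genes. Many members are short, and among genes spanning under 3 kb the shares were 32.4% of members and 34.8% of genes. S100a9, Flg2 and Hrnr also had no region but are longer, with spans of 3092, 24105 and 13824 bp. Of the 42 tested, 5 were lower in day 6 cells (S100a1, S100a3, S100a4, Sprr2i and Lce6a), or 11.9%, against 12.8% of all genes tested. None was higher, against 0.0842% of all genes. At an unadjusted p under 0.05, 16 members were lower and 1 was higher, which is 38.1% and 2.38% of those tested, against 36.7% and 0.788% of all genes. The members' share of calls was thus close to that of all genes. Their median difference was -0.79 regions, against -0.92 over all genes.

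These calls were lost at equal list length, where the same exact permutation test called 0 of the 30 members with a region and 0 of 18804 genes (smallest adjusted p = 0.184). At an unadjusted p under 0.05, 3 members were lower there (S100a3, Lce6a and Lce3a) and 0 were higher, against 10.3% and 1.86% of all genes. The median difference was then -0.50 regions over members and -0.08 over all genes. The windows of 24 members overlap those of other members and share regions, so members are not independent of each other.

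**Figure D4:**
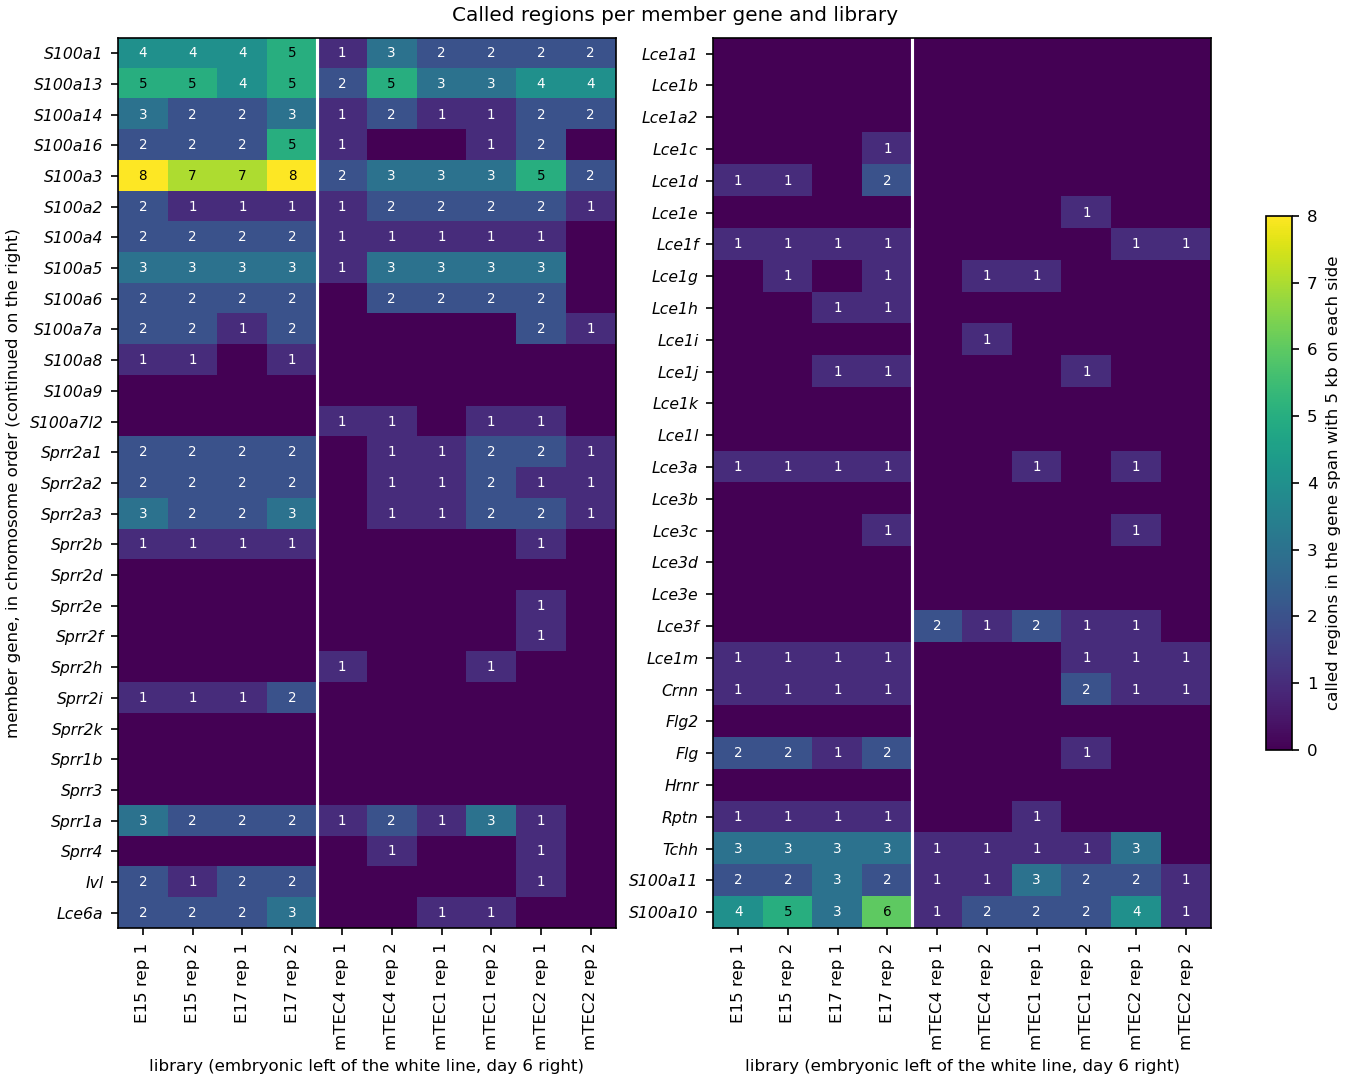
Called regions over each member gene or up to 5 kb from it (colour and printed number), with member genes in chromosome order down both panels and libraries across, embryonic libraries left of the white line and day 6 libraries right of it. Cells without a number have no called region, and the S100a rows at both ends of the complex are the most filled.

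The S100a genes, which encode calcium-binding proteins that act in many cell types, had the most regions of any family. Of the 15 genes, 14 had a region, 12 had one in all 4 embryonic libraries and 7 had one in all 6 day 6 libraries. These 7 (S100a1, S100a13, S100a14, S100a3, S100a2, S100a11 and S100a10) were the members with a region in all 10 libraries, or 12.3% of members, against 55.7% of all genes. Among genes spanning under 3 kb the shares were 5.41% of members and 18.1% of all genes.

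S100a3, whose human counterpart is known from the hair cuticle, had 2 and 3 regions in mTEC4, 3 and 3 in mTEC1 and 5 and 2 in mTEC2, against 8 and 7 in E15 and 7 and 8 in E17. The day 6 counts were all below the embryonic ones, by a mean of -4.50 regions (adjusted p = 0.0370, exact permutation test). At equal list length the difference was -1.17 and the groups overlapped. Its RefSeq span of 42351 bp encloses S100a2, so its window holds the regions counted for that gene too. S100a2, whose human counterpart is known from basal keratinocytes, had 1 and 2 regions in mTEC4, 2 and 2 in mTEC1 and 2 and 1 in mTEC2, against 2 and 1 in E15 and 1 and 1 in E17. Its groups overlapped (adjusted p = 0.689, exact permutation test).

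S100a1, known from heart and skeletal muscle, had 1 and 3 regions in mTEC4, 2 and 2 in mTEC1 and 2 and 2 in mTEC2, against 4 and 4 in E15 and 4 and 5 in E17. The groups did not overlap, and the mean difference was -2.25 regions (adjusted p = 0.0370, exact permutation test). With lists of equal length it was -0.17 and the groups overlapped. S100a4, a marker of motile and mesenchymal cells, had 1 and 1 in mTEC4, 1 and 1 in mTEC1 and 1 and 0 in mTEC2, against 2 in each of the 4 embryonic libraries. Its difference was -1.17 regions (adjusted p = 0.0370, exact permutation test), and -0.75 at equal list length, where the groups overlapped.

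Other S100a genes kept regions in most libraries. S100a13, which takes part in the release of growth factors, had 2 and 5 in mTEC4, 3 and 3 in mTEC1 and 4 and 4 in mTEC2, against 5 and 5 in E15 and 4 and 5 in E17. S100a14 had 1 or 2 in each day 6 library, against 2 or 3 in each embryonic library. S100a11, a partner of annexins, had 1 and 1 in mTEC4, 3 and 2 in mTEC1 and 2 and 1 in mTEC2, against 2 and 2 in E15 and 3 and 2 in E17. For these 3 genes the groups overlapped.

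S100a10, the partner of annexin A2, had 1 and 2 regions in mTEC4, 2 and 2 in mTEC1 and 4 and 1 in mTEC2, against 4 and 5 in E15 and 3 and 6 in E17. The first mTEC2 library reached into the embryonic range (adjusted p = 0.0995, exact permutation test), and at equal list length the difference was +0.42. The windows of S100a5 and S100a6 overlap. S100a6 (calcyclin) had 2 regions in each embryonic library and in 4 day 6 libraries, and 0 in the first mTEC4 and the second mTEC2 library.

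S100a8 and S100a9 encode the subunits of calprotectin, made by neutrophils and by stressed keratinocytes. S100a9 had no region in any library. S100a8 had 1 region, chr3:90664339-90664496, in both E15 libraries and the second E17 library, and 0 in all 6 day 6 libraries and the first E17 library. Of 11 granulocyte and macrophage markers, Ngp was at 0 in every library, and the summed region count over the list ran from 10 to 25 in day 6 libraries and from 9 to 17 in embryonic libraries. Their part in these results was not tested.

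Among the small proline-rich genes, the 3 Sprr2a copies and Sprr1a each had a region in 5 of the 6 day 6 libraries. Of the 14 Sprr genes, 10 had a region, 6 had one in all 4 embryonic libraries and 0 had one in all 6 day 6 libraries. Sprr2a1 had 0 and 1 regions in mTEC4, 1 and 2 in mTEC1 and 2 and 1 in mTEC2, against 2 in each embryonic library. Sprr2a2 and Sprr2a3 followed the same order, with 0 in the first mTEC4 library and at least 1 in every other library. The region over the promoter of each copy was called in every E15, E17, mTEC1 and mTEC2 library and in neither mTEC4 library. In the first E17 and the first mTEC1 library the peaks themselves ended just short of the start regions of Sprr2a1 and Sprr2a2.

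The 3 copies cannot be read as 3 independent loci. Sprr2a1 and Sprr2a2 start 34812 bp apart and Sprr2a2 and Sprr2a3 34657 bp apart, and their 300-base start regions were identical between Sprr2a1 and Sprr2a2 and shared 272 bases with Sprr2a3. Within a library the authors' −log10 q in the 3 regions over the promoters was close in some libraries and less so in others. It ran from 5.10 to 5.22 in the first mTEC2 library and from 2.79 to 4.23 in the second, while it was 8.19 to 11.2 in the first E17 library and 14.8 at all 3 copies in the second. From 10 kb before the start of Sprr2a1 to 10 kb before that of Sprr2a2, 4 regions were called in every embryonic library. Moved by the distance between the 2 starts, each of them overlapped another region called in every embryonic library. The sources used here do not say how reads that fit several copies were placed, so which copy was open is uncertain.

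The remaining Sprr2 genes were sparse. Sprr2i was lower in day 6 cells, with 0 regions in all 6 day 6 libraries, against 1 and 1 in E15 and 1 and 2 in E17 (difference -1.25, adjusted p = 0.0370, exact permutation test). Its shared embryonic region, chr3:92410919-92411429, lies 1648 bp outside the gene span, so the promoter printed above was not the called site. At equal list length no library had a region there, so the gene was no longer tested. Sprr2b had a region in all 4 embryonic libraries and in 1 day 6 library, the first mTEC2 library. Sprr2d, Sprr2k, Sprr1b and Sprr3 had no region anywhere.

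Sprr1a, one of the early envelope precursors, had 1 and 2 regions in mTEC4, 1 and 3 in mTEC1 and 1 and 0 in mTEC2, against 3 and 2 in E15 and 2 and 2 in E17. The groups overlapped, and at equal list length the difference was +0.42 in place of -0.92. Peaks in the region over its start, chr3:92485883-92486813, stood between the percentiles 27.6 and 57.4 of −log10 q in the embryonic lists.

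Ivl, which encodes involucrin, the scaffold on which the envelope is assembled, was not called lower after adjustment. It had 0 regions in both mTEC4 libraries, both mTEC1 libraries and the second mTEC2 library and 1 in the first mTEC2 library, against 2 and 1 in E15 and 2 and 2 in E17 (difference -1.58, adjusted p = 0.0555, exact permutation test). The value shared by both groups was 1. At equal list length the first E17 library had 1 region and the other 9 libraries had 0, a difference of -0.25. The region called in all 4 embryonic libraries, chr3:92571620-92572069, lies inside the gene span and not over the start. A further region 5222 bp away, chr3:92565486-92565677, was called in every embryonic library but in none of day 6.

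The late cornified envelope genes, which encode small proteins added last to the envelope, had the smallest share of genes with a region. Of the 21 genes, 13 had a region in any library, 4 had one in all 4 embryonic libraries (Lce6a, Lce1f, Lce3a and Lce1m) and 0 had one in all 6 day 6 libraries. The 8 without a region are near the share among short genes. All but Lce6a span under 3 kb, and 34.8% of all genes that short had no region in any library. Lce6a was the 1 gene of the family lower in day 6 cells. It had 0 and 0 regions in mTEC4, 1 and 1 in mTEC1 and 0 and 0 in mTEC2, against 2 and 2 in E15 and 2 and 3 in E17 (difference -1.92, adjusted p = 0.0370, exact permutation test). The groups did not overlap, also at equal list length, where the difference was -1.25 (adjusted p = 0.184, exact permutation test). The embryonic counts came from chr3:92600588-92600714 and chr3:92602305-92602484, both called in every embryonic library but in none of day 6, and both outside the gene span. Within the span alone the difference was +0.17.

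Lce3f ran the other way before adjustment. It had 2 and 1 regions in mTEC4, 2 and 1 in mTEC1 and 1 and 0 in mTEC2, against 0 in each embryonic library (difference +1.17, adjusted p = 0.111, exact permutation test). Its 2 day 6 regions were weak, with a −log10 q of at most 2.31, and at equal list length 1 library, the first mTEC4 library, still had them. The strongest embryonic peak of the whole complex lay just outside that window, 5381 bp from Lce3f. This region, chr3:92998807-92998975, was called in all 4 embryonic and in 4 day 6 libraries, with a −log10 q of up to 6.56 in day 6 libraries and 61.7 in embryonic libraries.

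Among the S100 fused-type genes, 4 of 6 had a region in all 4 embryonic libraries, and Flg2 and Hrnr had none in any library. Flg, which encodes filaggrin, had 0 and 0 regions in mTEC4, 0 and 1 in mTEC1 and 0 and 0 in mTEC2, against 2 and 2 in E15 and 1 and 2 in E17 (difference -1.58, adjusted p = 0.0555, exact permutation test). Flg had 0 regions in all 10 libraries at equal list length. Tchh (trichohyalin, of the inner root sheath of hair) had 1 and 1 in mTEC4, 1 and 1 in mTEC1 and 3 and 0 in mTEC2, against 3 in each embryonic library. It had 1 region at equal list length in 4 of the 6 day 6 libraries and in each embryonic library. Crnn (cornulin, of squamous epithelium) had 0 and 0 in mTEC4, 0 and 2 in mTEC1 and 1 and 1 in mTEC2, against 1 in each embryonic library. With the lists as deposited, in all 3 genes the first mTEC2 or the second mTEC1 library reached the lowest embryonic count.

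Few promoters of the complex carried a called region. Of the 53 members with a RefSeq start region, 12 had a called region over it in at least 1 library (22.6%), against 66.7% of 17492 genes. In all 4 embryonic libraries 10 did (18.9%), against 60.5% of genes. In all 10 libraries only S100a11 did (1.89%), against 37.3% of genes. By library, 1 and 6 member promoters were called in mTEC4, 8 and 11 in mTEC1 and 12 and 7 in mTEC2, against 11 and 10 in E15 and 10 and 11 in E17.

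The 12 called promoters belonged to S100a1 and S100a13 (which share 1 region), S100a16, S100a3, S100a6, the 3 Sprr2a copies, Sprr1a, Lce3c, Crnn and S100a11. The mTEC4 libraries lacked a called region over the starts of Sprr2a and Crnn, while S100a11 had one in both. S100a3 has 4 annotated start regions, and only chr3:90586702-90587001 was called, in 4 of 6 day 6 libraries and in 1 of 4 embryonic libraries. Its other start regions were not called in any library.

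**Figure D5:**
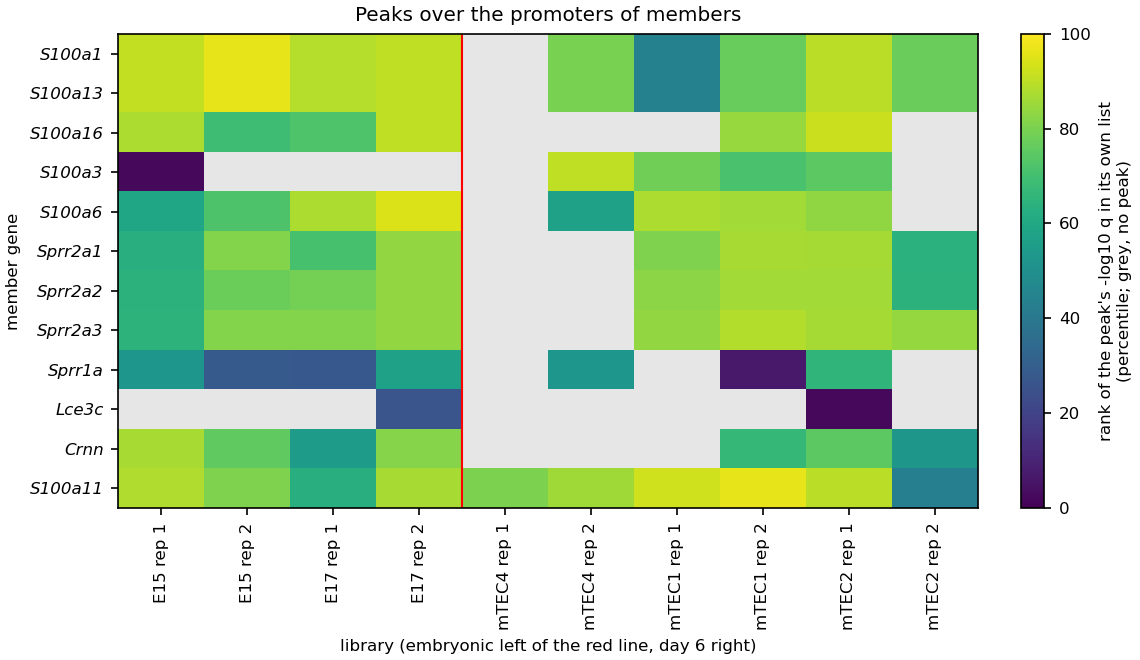
Peaks in the regions that overlap the start regions of the 12 members with a called promoter, by library. Embryonic libraries are left of the red line and day 6 libraries right of it. Colour gives the percentile of the peak's −log10 q within its own list, and grey means no peak. The row of S100a11 is filled in all 10 libraries, and the 3 Sprr2a rows are filled in every library except the 2 mTEC4 libraries.

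Motifs were counted in the start regions of all 53 members that have one, not only in those printed above, which include no Lce gene. TATAAA was found in 24 of the 53 member promoters (45.3%), against 14.8% of all promoters, and in 10 of 14 Sprr genes. In Sprr2b, Sprr2i, Ivl and Crnn it began 29 bases before the annotated start. The AP-1 motif TGANTCA was found in 17 members (32.1%), against 8.12% of all promoters. It was found in 9 of 14 Sprr genes, 4 of 6 fused-type genes and Ivl, and in 0 of 20 Lce genes. Some Sprr2 promoters resemble each other, so these shares do not count independent promoters. Sprr2d and Sprr2e were identical at 88% of positions, and Sprr2e and Sprr2i at 72.3%. The C/EBP motif TTGCNNAA was found in 6 members (11.3%), against 11.7% of all promoters. The KLF and SP box CCNCNCCC was found in 14 (26.4%), against 58.7%, and the ETS motif CCGGAAG in 0, against 12.9%. Each motif was searched on both strands, and the AP-1, C/EBP, KLF and SP box, ETS and TATAAA motifs were counted separately where they overlapped. Among the printed members both TATAAA and the AP-1 motif occurred with and without a called promoter. Ivl, Sprr2b and Sprr2i had both motifs and no called promoter, and Sprr1a and Crnn had both motifs and a promoter called in 3 day 6 and 4 embryonic libraries. S100a11, called in all libraries, had 2 AP-1 matches and no TATAAA.

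Most regions of the complex lay more than 5 kb from any member. Of the 370 regions, 41 lay inside a member, 54 within 5 kb of one and 275 (74.3%) between members, where other genes also lie. Of those between members, 151 were called in day 6 libraries alone. Called in all 10 libraries were 6 regions (1.62%), against 2.76% of all regions. They were chr3:90508950-90509702 near S100a1, chr3:90526255-90527157 over S100a14, chr3:90585647-90585920 in S100a3, chr3:93494085-93494274 and chr3:93506075-93507388 between Tchh and S100a11, and chr3:93520203-93521223 over the S100a11 start. The nearest member of each was an S100a gene, and none lay between S100a3 and Tchh. Called in all 4 embryonic libraries were 95 regions (25.7%), against 18.7% of all regions.

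Of those 95 embryonic regions, mTEC4 libraries called 11 and 27, mTEC1 libraries 24 and 45 and mTEC2 libraries 74 and 36. As percentages these were 11.6% and 28.4%, 25.3% and 47.4%, and 77.9% and 37.9%. Over the 65702 regions of the whole genome called in all 4 embryonic libraries they were 22.3% and 35.5%, 28.7% and 50%, and 65.6% and 34.7%, in the same order. The complex lay below the genome in both mTEC4 and both mTEC1 libraries and above it in both mTEC2 libraries, the fraction whose peak names carry the same tag as the embryonic ones. Differences between the fractions were not tested.

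In all 4 embryonic and no day 6 library 16 regions were called (4.32%), against 4.29% of all regions. The strongest of these were chr3:93306271-93306399, 12582 bp from Flg, with an embryonic −log10 q of up to 29.3, and chr3:92510890-92511103, 10397 bp from Sprr4, with up to 26.8. Another, chr3:92771618-92771852 near Lce1i, reached 18.1. None of the 16 lay over a member's promoter. In all 6 day 6 and no embryonic library 0 regions were called, against 0.0441% of all regions. Regions called in day 6 libraries alone numbered 174, with a median width of 113 bp and a median −log10 q of 1.62, and 128 of them were in 1 library (34.6% of the complex's regions, against 40.6% of all regions).

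Genes that work with the complex but lie elsewhere were tested in the same fit. Of 26 cornification genes outside the complex, 6 were lower in day 6 cells and 0 higher, against 12.8% lower and 0.0842% higher of all genes, with a median difference of -1.54 regions, against -0.92 over all genes. They included Krt14, a basal keratin, with 1 and 0 regions in mTEC4, 0 and 1 in mTEC1 and 1 and 1 in mTEC2, against 3 and 3 in E15 and 3 and 4 in E17, and Ppl (periplakin) and Pkp1 (plakophilin 1). Tgm1, the transglutaminase that cross-links the envelope, did not pass (difference -2.33, adjusted p = 0.0703, exact permutation test). The shift was not particular to cornification genes. The median difference was -1.92 regions over 5 epithelial markers and -1.58 over 6 mesenchyme markers. For thymocyte markers it was 0.125, and for granulocyte and macrophage markers 0.333. At equal list length 0 of 18804 genes passed.

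Of 9 regulators of keratinocyte differentiation, 1 (Klf4) was lower in day 6 cells, with a difference of -2.42 regions. Trp63, the master regulator of stratified epithelia, had 1 and 4 in mTEC4, 4 and 11 in mTEC1 and 14 and 3 in mTEC2, against 22 and 18 in E15 and 15 and 30 in E17 (adjusted p = 0.0555, exact permutation test). Of 8 other genes that lie between members, 1 (Lelp1) was lower. Both counts are near the 12.8% of all genes that were lower. Summed counts over 8 thymocyte markers ran from 9 to 37 in day 6 libraries and from 21 to 36 in embryonic libraries, and over 6 mesenchyme markers from 3 to 11 in day 6 libraries and from 15 to 23 in embryonic libraries. Over the 5 epithelial markers they ran from 8 to 17 in day 6 libraries and from 24 to 35 in embryonic libraries. Among these markers, Cdh1, Krt8 and the mesenchyme marker Col1a2 were lower in day 6 cells (adjusted p = 0.0370 each, exact permutation test). The part of other cell types in the results was not tested.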

How the data were processed

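ATAC-seq was run on 10 libraries of thymic epithelial cells. The tools cutadapt, Bowtie2, Picard and MACS2 and the mm10 build are named, per the submitters' processing notes. Order, versions, any shift of read ends and the handling of reads that fit several places are not given in the sources used here. Each library has its own deposited list of broad peaks, and per the labels these describe nucleosome-free chromatin. The deposited score of each peak was not used. The deposited fold is a ratio to the caller's background within that library, and the deposited -log10 p and -log10 q belong to their own list. The lowest -log10 q was 1.0002. These values were used to describe and select peaks. The same cutoffs were applied to every list, and values from different lists are set side by side above. The part of depth in such comparisons was not tested. Where no peak is listed, the site may still be open.

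Peaks were merged where they overlapped or touched. Regions were counted per gene in its RefSeq span (GRCm38.p6) with 5 kb on each side, and groups were compared by exact two-sided permutation with Benjamini-Hochberg adjustment over 20190 genes and a threshold of 0.05. Start regions came from the RefSeq table, with 53 of 57 members matched. Full values were given for members past the threshold or with a region in all 10 libraries, and for 13 others, Sprr2b and the named list genes, chosen after their values were seen. Members and gene lists were chosen with earlier results of these data known. Alternatives were list length, peak strength, window, region overlap and libraries left out. The counting was tested on simulated data. Python 3.11.15, numpy 2.4.6 and pandas 2.3.3 were used.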

Additional observations from a re-analysis of the deposited data

Results flagged for a closer look

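Some single libraries stood apart from the rest of their stage in the number of called regions at a member. These are small whole numbers with many ties, where a step of 1 region can be the whole range. The rule used (Dixon's ratio of gap to range) is meant for continuous values. How many groups would stand apart this way by chance is therefore not known. Among the 6 day 6 libraries, the first mTEC2 library was the highest, with 4 regions at S100a10, 5 at S100a3, 3 at Tchh and 1 at Ivl. The second mTEC1 library alone had 1 at Flg, and the second mTEC2 library alone had 0 at S100a4. Among the 4 embryonic libraries, the second E17 library, which has the longest list, was the highest, with 3 regions at Lce6a, 5 at S100a1 and 2 at Sprr2i. The first E17 library had 3 at S100a11, 4 at S100a13, 1 at Flg and 0 at S100a8. The first E15 library had 2 at S100a2 and 3 at Sprr1a, and the second E15 library had 1 at Ivl. The part of list length in these counts was not tested.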

How the results depend on the processing

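Counts of genes called depend on the lists: 2598 genes passed in all, 5 of them members. Shortening lists to equal length gave 0 genes, 0 members, a difference of -24.25 regions in the complex and 7 regions called in all embryonic and no day 6 libraries (16 as deposited). A -log10 q of at least 2 gave 8567 genes (44.6% of those tested lower), 14 members, -89.5 regions, 30 such regions and 2 in all 10 libraries (6 as deposited). A -log10 q of at least 5 gave 9436 genes (54.2% lower), 18 members, 33 such regions and 1 in all 10. With 0 kb on each side 1 member passed, and with 10 kb 4033 genes and 10 members. Asking that peaks cover most of the region (0.5 or more) gave 7736 genes, 15 members, 31 such regions and 1 in all 10. The cause was not tested.

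Leaving out each library in turn gave 0 to 4491 genes and 0 to 9 members lower, 16 to 33 regions called in all embryonic and no day 6 libraries, 6 to 8 in all libraries, 0 to 1 in all day 6 and no embryonic libraries, and a difference of -65 to -45.7 regions. Calls were made only without the first mTEC2 library (9 members, 22.3% of genes lower). In the other 9 runs the smallest adjusted p was above 0.05. Every run had fewer arrangements than the full set. The run with calls had 126, the same as the other runs that left out a day 6 library. Leaving out both the longest and the shortest list, chosen after seeing the data, gave 0 genes, 0 members and 1 region in all day 6 and no embryonic libraries. With the replicate number as a block, 0 genes and 0 members passed, as its smallest adjusted p is 0.0689. Only 2 of 10 pairs of groups deviated together at a correlation over 0.1 (range -0.754 to 0.335). List length also differed between the libraries of each group, so this cannot show whether the numbers pair the libraries.

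Signs reversed in 5 cases. They were S100a10 (0.42) and Sprr1a (0.42) at equal length, S100a2 at a -log10 q of at least 5 (-0.83) and with 10 kb (-0.58), and Lce6a with 0 kb (0.17). Counting peaks by their midpoint gives no region classes. With no read counts, the depth behind a missing peak is unknown.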
